A study of Bos indicus with 12 samples.

Results

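The genes described here are those whose transcript abundance in the endometrium varied most from cow to cow. Counts of each library were divided by its size factor, the median-of-ratios scale that puts libraries of different depth on a common level. A gene was taken when its mean normalized count over the 12 cows was above 10 and its SD was at least as large as its mean. This selected 222 of the 24616 gene IDs of the table, or 1.53% of the 14489 IDs with a mean above 10. The genes were thus selected on the mean and the SD over all 12 cows, and no group label was used. The spread of these genes is therefore a description, and only treatment, later pregnancy, plasma progesterone (P4) and library class were tested.

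All cows were suckled, multiparous, anestrous Nelore (Bos indicus) beef cows, and each library came from the endometrium of a different cow. Every cow, in both groups, had received 2 mg of estradiol benzoate with an intravaginal P4 device for 8 d, cloprostenol, 10 µg of the GnRH analogue buserelin 48 h after device removal, timed insemination, and a biopsy 6 d later. At device removal the 6 ECP cows also received 1 mg of estradiol cypionate (ECP, a slowly released estradiol ester), and the 6 CON cows received none. The cows chosen for sequencing had shown estrus in the ECP group and had not in the CON group, so the ester and the display of estrus cannot be told apart. Pregnancy diagnosis after the insemination was positive for 3 cows and negative for 3 in either group. This split was not an observed outcome, since the study selected cows so that both outcomes were present in both groups. It also selected them for a similar follicle diameter at device removal and a similar P4 at biopsy, which limits the comparison with P4. Plasma P4 at biopsy ranged from 2.82 to 4.73 ng/mL. Libraries held 8637917 to 15015055 counts, and the variable genes took from 0.0998% of them in cow D160 to 0.504% in cow E0819. The share of reads that mapped fell into a higher and a lower class of 6 libraries each, both with 3 ECP and 3 CON cows, and this class was examined as a technical factor. An endometrial biopsy holds luminal and glandular epithelium, stroma, vessels and immune cells, in proportions that change with the site and depth of sampling and with the ovarian cycle. Estradiol before ovulation is known to induce receptors for both ovarian steroids in this tissue, and P4 afterwards turns it towards secretion. In such bulk samples fewer cells of a type and less RNA per cell cannot be told apart.

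Gene IDs are given as in the count table, which does not pair them with names. A table of the differential genes of the study lists 135 gene IDs, 123 of them with a symbol, out of 15161 genes tested. Of the 222 variable genes, 2 are in that table, 1 of them with a symbol. That gene is KRT9 (ENSBTAG00000047165), a type I keratin known from the thick skin of palms and soles in humans. Roles of the other variable genes are not given for that reason. Defining markers of endometrial and other cell types could be matched for only 3 of 217 listed symbols, so the labelled tissue was not checked against them.

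Most of the variable genes were weakly expressed. Their mean normalized counts ran from 10.1 to 5110 with a median of 25.9, against a median of 331 for all IDs with a mean above 10. A mean below 100 was found for 186 genes and a mean above 1000 for 4. The SD divided by the mean ran from 1.00 to 3.13 (median 1.20). Over all IDs with a mean above 10 the median of that ratio was 0.189 and its 95th percentile was 0.678. Counting error, taken as Poisson, made up between 0.00935% and 8.78% of the variance over cows (median 2.39%). It covers counting alone, because the reads carried no molecular identifiers. Just inside the limits were ENSBTAG00000010578, with a mean of 10.1, and ENSBTAG00000046034, with a ratio of 1.0015. Just outside were ENSBTAG00000019716, with a mean of 9.94, and ENSBTAG00000031383, with a ratio of 0.9985.

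**Figure D1:**
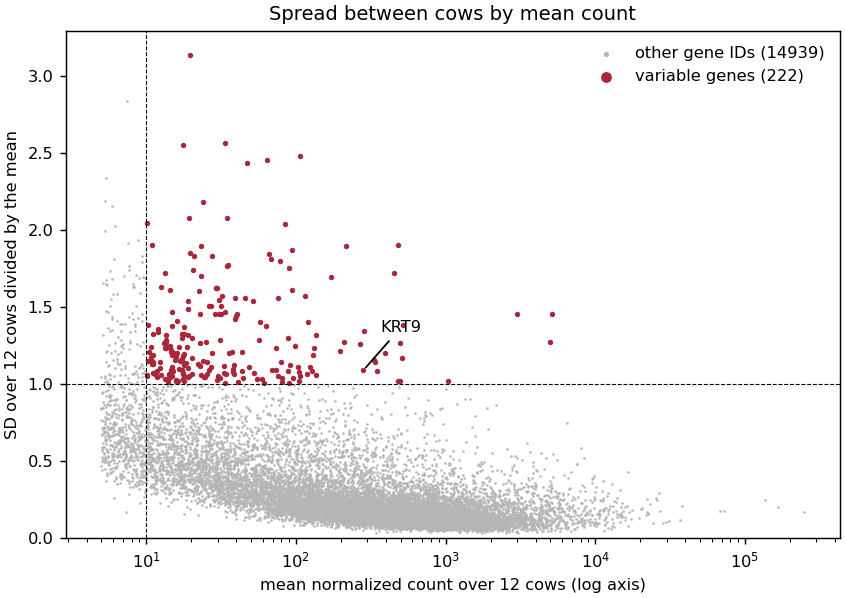
Mean normalized count over 12 cows (x axis, log scale) against SD divided by the mean (y axis), 1 point per gene ID with a mean above 5, with the 222 variable genes in red and the limits dashed. The red points crowd at low means, and only 4 lie above a mean of 1000.

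Every cow had the highest count for some of the genes, but the number of genes was uneven between cows. Cow B1042 had the highest count for 35 of the 222 genes, cow X156 for 32, cow X228 for 25, cow E0819 for 21, and cows E0040 and C317 for 20 each. At the other end were cows E0406, with 7, and D160, with 6. By treatment, the highest cow was a CON cow for 120 genes and an ECP cow for 102. By outcome it was a non-pregnant cow for 125 genes and a pregnant cow for 97. By library class it was of the higher class for 112 and of the lower for 110. A median of 4 cows (range 1 to 6) lay above the mean of a gene, and the top cow supplied a median of 34.3% of its summed count.

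**Figure D2:**
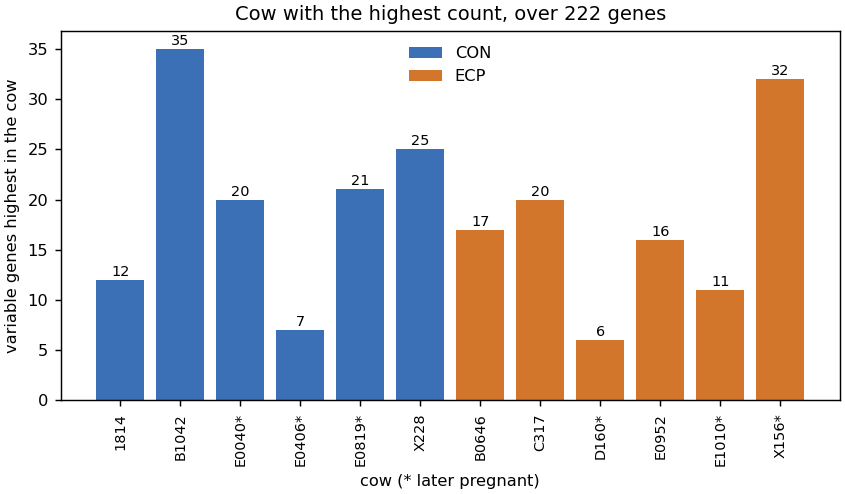
Number of the 222 variable genes that were highest in each cow (y axis), CON cows in blue and ECP cows in orange, later pregnant cows starred. Every cow was the highest for some genes, from 6 in D160 to 35 in B1042.

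A single cow held at least 50% of the summed count of 25 genes, and it was a CON cow for 16 and an ECP cow for 9. ENSBTAG00000048030 was the most uneven, with an SD of 3.13 times the mean. Its normalized count was 214 in cow E1010 and between 0 and 4.89 in the other 11 cows. Likewise, ENSBTAG00000019385 stood at 308.5 in cow X228 and at no more than 14.8 elsewhere. Cow E1010 also carried ENSBTAG00000014046, at 159 against at most 14.8 in any other cow. In cow E0040 the normalized counts were 926 for ENSBTAG00000002998 and 543 for ENSBTAG00000047383. The first of these was also raised in cows 1814 (134) and B1042 (167) and lay between 1.96 and 13.0 in the other 9 cows. The second was raised in cow B0646 (142) and was at most 27.8 in the remaining cows. When the top cow of each gene was left out, 90 of the 222 genes still met both limits and 132 did not. Whichever cow was left out, 80 genes met the limits.

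Abundance at 0 was uncommon. A count was present in every cow for 149 genes, 73 genes were at 0 in at least 1 cow, and 6 were at 0 in 4 or more cows. ENSBTAG00000009656, singled out after its values were seen, had no count in 8 cows, where up to 3 counts are allowed by a count of 0. The other 4 cows, B1042, E0819, X228 and E1010, had normalized counts of 48.7 to 120.

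The genes with the highest means showed different kinds of spread. ENSBTAG00000048135 had a normalized count of 28160 in cow E0819 and of 1148 to 5537 in the others. ENSBTAG00000031160 followed it, with 16460 in cow E0819 and 645.7 to 3663 in the others. Across the 12 cows this pair had a Spearman rho of 0.958. ENSBTAG00000014534 had almost the same mean, 4978, with another distribution. It stood at 16780, 14060, 13350, 6781 and 5553 in cows B1042, C317, X228, E0406 and E1010, and between 392 and 551.5 in the other 7 cows. No cow lay in the 10.1-fold gap between 551.5 and 5553. The 5 high cows were 3 CON and 2 ECP, 3 non-pregnant and 2 pregnant, and 4 of the lower and 1 of the higher mapping class.

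Such a gap was searched for in all 222 genes. A gene was called switch-like when neighbouring cows in its sorted values, as log2(normalized count + 1), were at least 2 log2 units apart with at least 2 cows on each side. This held for 31 genes, with 2 to 10 high cows, and in 14 of them the high cows numbered 4 to 8. Some of these gaps lay between 0 and a few counts, and their size depends on the 1 that was added. Examples are ENSBTAG00000004775, with no cow between 0 and 3.16, and ENSBTAG00000001206, with none between 0 and 5.26. The genes described next are those of highest mean. ENSBTAG00000032642 stood at 2870 in cow C317 and 1881 in cow B0646, both ECP and non-pregnant, and at no more than 363 in the rest. For ENSBTAG00000047121 the high cows were E0819 (2424), B0646 (1470) and E1010 (1052), and the others were at 10.5 to 189. ENSBTAG00000021565 was between 319 and 1115 in cows E0819, C317, X156, E0040 and E1010, 4 of them pregnant, and between 8.78 and 62.2 in the remaining 7. ENSBTAG00000004170 reached 1405 in cow 1814 and 358 to 377 in cows B0646, E1010 and D160, against 2.11 to 26.9 elsewhere. High cows differed from gene to gene. A single pair of the 31 genes divided the cows in the same way, and in opposite directions, ENSBTAG00000032642 being high and ENSBTAG00000038981 low in cows B0646 and C317. ENSBTAG00000038981 was weak, at 0 in these 2 cows and at 3.70 to 44.5 in the others, so its gap lay near the floor.

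**Figure D3:**
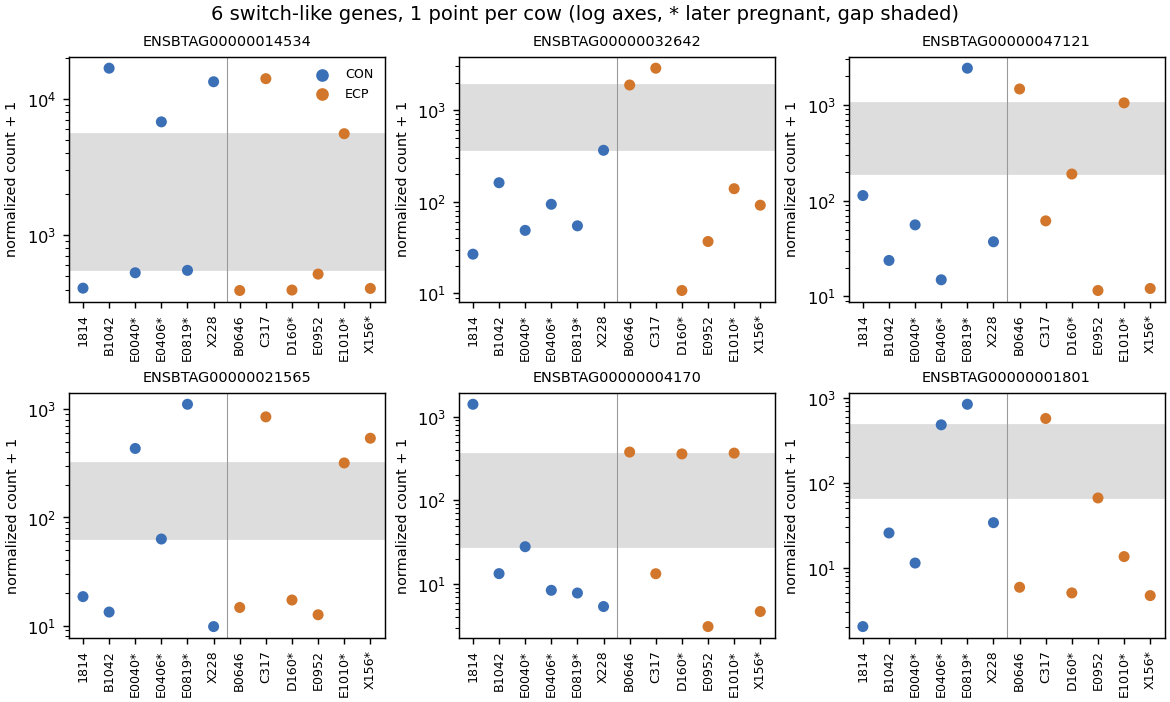
Normalized count + 1 (y axis, log scale) of the 6 switch-like genes of highest mean in each of 12 cows (x axis, CON left of the line and ECP right, later pregnant cows starred), 1 point per cow, with the empty gap shaded. In ENSBTAG00000014534 the gap runs from 551.5 to 5553, and both groups have cows above and below it.

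Whether most of the variable genes fell in a group with a shared pattern depended on where the groups were divided. Over the 24531 pairs of variable genes the median Spearman rho across the 12 cows was 0.014, and 0.534% of pairs reached a rho of 0.8. Over all pairs of the 14489 IDs with a mean above 10 that share was 0.28%. Genes share the same libraries and size factors, so these correlations are descriptive. Average linkage on 1 minus rho, with the tree divided at 0.4, gave 10 blocks of 5 or more genes, with 79 genes in all, and 143 genes were in no block. The genes of a block were grouped by their pattern over these same cows. A count of genes within a block is therefore not a count of independent results. The level of a block in a cow is given below as the median over its genes of the count relative to the gene's own mean.

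**Figure D4:**
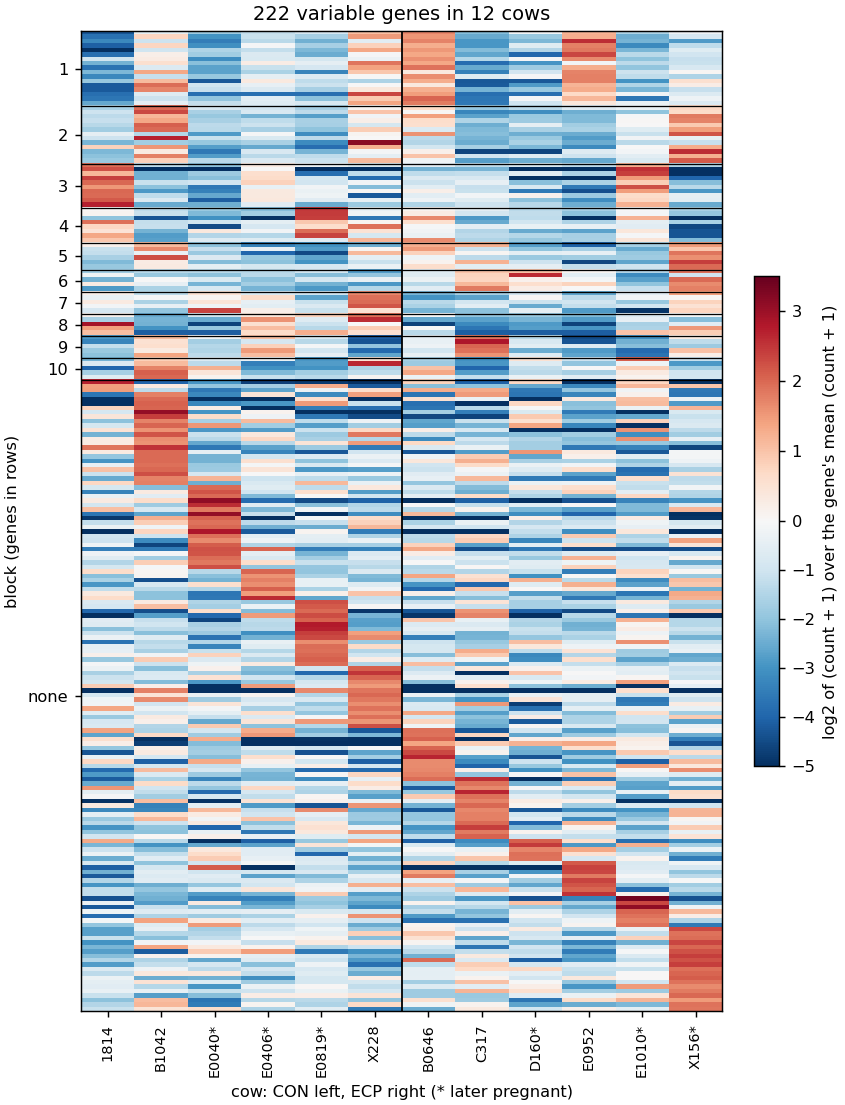
Heat map of the 222 variable genes (rows, by block, with the 143 genes in no block last and ordered by their highest cow) in 12 cows (columns, CON left and ECP right, later pregnant cows starred). Colour is log2 of (normalized count + 1) over the gene's mean of it, and the median level of each block is above 1 in 3 or 4 cows, as that of block 1 is in B0646, E0952, X228 and B1042.

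The largest block, with 17 genes and a median rho of 0.78, was high in cows B0646 (2.94 times the gene's mean), E0952 (2.54), X228 (1.96) and B1042 (1.15). These 4 cows were all later non-pregnant, 2 in each treatment group. However, the other non-pregnant cows, 1814 (0.0413) and C317 (0.119), had the lowest levels of all 12, and the pregnant cows lay between, at 0.187 to 0.585. Its most abundant gene, ENSBTAG00000040394, had a normalized count of 22.8 to 73.1 in pregnant cows (median 40.05). In non-pregnant cows it ran from 3.09 to 267 (median 112.5). ENSBTAG00000021501 and ENSBTAG00000037800, both of this block, had the highest rho of any pair, 0.993. ENSBTAG00000001785 stood at 402 in cow E0952 and 224 in cow B0646, and at no more than 46.1 in any other cow.

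The second block (13 genes) was highest in cows B1042 (2.98) and X156 (2.5), and also above 1 in cows B0646 (1.13) and X228 (1.07). It held ENSBTAG00000019798, with a normalized count of 3990 in cow B1042 and 269 to 1705 in the others, and ENSBTAG00000022715, with 2564 in cow B1042, 1044 in cow X228 and 53.5 to 817 elsewhere. ENSBTAG00000039446 differed in order, at 1814 in cow X156, 1385 in cow B0646 and 1134 in cow B1042. Block 3 (10 genes) was highest in cows 1814 (4.19) and E1010 (2.65), 1 of each treatment and each outcome. It was also above 1 in cow E0406 (1.29). Its leading gene, ENSBTAG00000017183, stood at 1355 and 841 in cows 1814 and E1010 and at 82.9 to 433 in the others. ENSBTAG00000021306 was at 394 and 494 there, at 83.5 in cow E0406, and at no more than 15.8 elsewhere. Block 4 (8 genes) was led by cow E0819 (4.67), followed by 1814 (1.54) and B0646 (1.15), and held both ENSBTAG00000048135 and ENSBTAG00000031160. Block 5 (6 genes) was led by cow X156 (3.38), followed by B1042 (1.71) and B0646 (1.67).

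Block 6, with 5 genes, held KRT9, ENSBTAG00000009862, ENSBTAG00000001250 and ENSBTAG00000033222. It was above 1 in cows X156 (3.57), C317 (2.01), D160 (1.53) and E0952 (1.02), all of the ECP group. The remaining ECP cows were at 0.647 (B0646) and 0.195 (E1010), and CON cows were at 0.191 to 0.382, so that cow E1010 lay within the CON range. Of the smaller blocks, each of 5 genes, block 7 was led by cow X228 (3.83), block 8 by cows 1814 (2.15), X228 (1.89) and E0406 (1.59), block 9 by cows C317 (3.99) and E0406 (2.07), and block 10 by cow B1042 (3.47). Block 8 was above 1 only in CON cows, and none of its 5 genes had a higher fitted level in ECP cows. Blocks 6 and 8 were not recovered with the tree divided at 0.3. With Pearson correlation block 6 kept 4 genes together and block 8 kept 0.

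The first comparison asked whether the variable genes differed with the ECP treatment. No variable gene passed the test, edgeR's quasi-likelihood test with Benjamini-Hochberg adjustment over all 15161 genes tested and an adjusted p of at most 0.10. The background was also 0, that is 0% of all genes tested, with a lowest adjusted p of 0.456. At an unadjusted p under 0.05 edgeR had 39 of the 222 variable genes (17.6%, 23 higher and 16 lower in ECP) beside 8.88% of all genes tested. That excess depended on the tool. By limma voom 12 variable genes (5.41%) reached the level beside 8.64% of all genes, a share below the background, and 0% of all genes passed the adjusted threshold. By DESeq2 46 (20.7%) reached it beside 10.2%. Of the 222, 4 (1.8%) passed by DESeq2 (2 higher, 2 lower) beside 99 of all genes (0.653%), with 14 variable genes given no adjusted p. In 90 of the genes tested (0.594%) the ECP and CON cows did not overlap, and none of the variable genes was among them. The median log2 difference of the variable genes, ECP minus CON, was -0.11, against 0.00 for all genes tested. That sign depended on single cows and on the model: it was 0.19 without CON cow B1042, 0.03 without ECP cow D160 and 0.02 with the library class in the model. Within the higher and the lower class it was 0.24 and 0.18.

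KRT9 had the lowest p among variable genes that were higher in ECP cows. Its normalized count in CON cows was 82.5, 108.1, 107.8, 108.6, 148 and 39.5. In ECP cows it was 183, 568, 573, 300.1, 103 and 1073. CON cows averaged 99.1 ± 36.0 (SD, n = 6) and ECP cows 467 ± 355 (SD, n = 6), and the groups overlapped only through ECP cow E1010, at 103. The log2 difference was 2.24 (SE 0.49) with an edgeR adjusted p of 0.465, and the exact permutation test on log2(count + 1) gave p = 0.0108, two-sided. The study's own table lists KRT9 as differential on these same libraries, which is no independent evidence of its direction.

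ENSBTAG00000009862, also in that table, had the largest share of its variance on the log2 scale associated with treatment, 60.3%, against a median of 4.37% for the variable genes and 6.68% for all genes tested. It was weak, at 0.974 to 7.26 in CON cows (median 2.83) and 5.57 to 50.04 in ECP cows (median 15.0). Only ECP cow E1010, again the lowest of its group, was below a CON cow, E0040. The log2 difference was 2.87 (SE 0.65, edgeR adjusted p = 0.465, exact permutation p = 0.00433), and the smallest p that 6 against 6 cows allow is 0.00216. In all, 114 exact tests were run, of treatment and of pregnancy in 57 named genes, and none passed after Benjamini-Hochberg adjustment over them. The lowest adjusted exact permutation p was 0.494, for ENSBTAG00000009862, and KRT9 was at 0.617. All 5 genes of block 6 had an unadjusted edgeR p under 0.05 for treatment, a level reached by 8.88% of all genes. They were grouped by their shared pattern, so they amount to 1 pattern, and that share is no measure for them.

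Among genes lower in ECP cows, ENSBTAG00000002998 and ENSBTAG00000002779 had the lowest p. ENSBTAG00000002998 had its 3 high values (134 to 926) in CON cows, while the other CON cows, at 3.90 to 6.497, lay within the ECP range of 1.96 to 13.0. Its log2 difference was -5.08 (SE 1.29, edgeR adjusted p = 0.473, exact permutation p = 0.0866). ENSBTAG00000002779 was at 143, 112 and 39.9 in CON cows B1042, X228 and E0406, and at 5.15 to 13.5 in the other CON cows. ECP cows were at 2.78 to 11.7. Its log2 difference was -2.86 (SE 0.77) with an edgeR adjusted p of 0.473 and an exact permutation p of 0.0519. These 4 genes had an adjusted p of 0.00259, 0.0227, 0.0112 and 0.0327 by DESeq2, in the order in which they are described here.

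**Figure D5:**
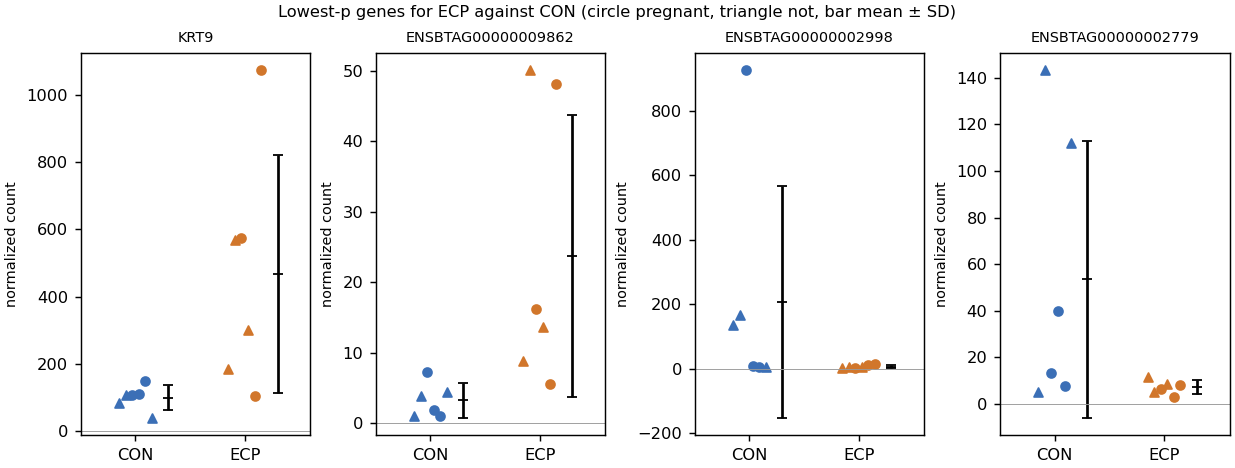
Normalized count (y axis) in 6 CON and 6 ECP cows of the 4 variable genes with the lowest p for treatment, 2 in each direction, 1 point per cow (circles pregnant, triangles non-pregnant), with bars for the mean ± SD, which can pass below 0. KRT9 runs from 39.5 to 148 in CON cows and from 103 to 1073 in ECP cows, and the 2 genes on the right are high in 3 CON cows each.

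Later pregnancy was compared next, with treatment in the model. By edgeR 0 of the 222 variable genes and 0% of all genes tested were called, with a lowest adjusted p over all genes of 1.00. DESeq2, with 21 variable genes given no adjusted p, and limma voom called none either. By edgeR the unadjusted p was under 0.05 for 25 variable genes (11.3%, 7 higher and 18 lower in pregnant cows) beside 3.44% of all genes. By DESeq2 these shares were 16.2% (36 genes) beside 4.06%, and by limma voom, with a smaller difference, 4.5% (10 genes) beside 3.18%. Pregnant and non-pregnant cows did not overlap in 7 genes (0.0462%), none of them variable. The median log2 difference, pregnant minus non-pregnant, was -0.23, and 0.04 without cow B1042. All 17 genes of the largest block, which are not independent of each other, had a lower fitted level in pregnant cows, by a median of -1.87 log2. Of these genes, 9 had an unadjusted p under 0.05. The non-pregnant cows 1814 and C317 were nevertheless the lowest of the 12 for this block.

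Of single genes lower in pregnant cows, ENSBTAG00000037578 stood at 140.4 and 87.6 in cows B1042 and 1814, at 1.05 to 18.4 in the other non-pregnant cows and at 0 to 6.49 in pregnant cows. Its log2 difference was -3.37 (SE 1.05). ENSBTAG00000021501 of the largest block followed, at 5.15 to 237 in non-pregnant cows (median 165) and 9.33 to 44.4 in pregnant cows (median 22.7), with a log2 difference of -2.42 (SE 0.76). In the other direction, ENSBTAG00000023411 was at 160, 94.7, 63.2, 32.0, 13.8 and 1.95 in pregnant cows and at 0.948 to 14.05 in non-pregnant cows. ENSBTAG00000007948 was at 120.8, 119.7, 83.6, 29.7, 17.6 and 13.5 in pregnant cows and at 2.06 to 25.3 in non-pregnant cows. These differences were 3.40 (SE 0.86) and 2.31 (SE 0.62) on the log2 scale. All 4 had an edgeR adjusted p of 1.00, and the groups overlapped in each of them.

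For the slope on plasma P4, with treatment in the model, edgeR called 0 of the 222 variable genes and 0% of all genes tested, with a lowest adjusted p of 0.209. Unadjusted p was under 0.05 for 18 variable genes (8.11%) beside 4.69% of all genes by edgeR. It was so for 38 (17.1%) beside 5.85% by DESeq2 and for 19 (8.56%) beside 4.64% by limma voom. DESeq2 called 13 genes (0.0857%), among them 1 of the 222 variable genes (0.45%), and limma voom called none. The gene with the lowest adjusted p of all was the variable ENSBTAG00000010151, at 0.209. It stood at 100.5 and 89.1 in CON cows E0040 and E0406 and at 54.8 in ECP cow B0646, and at 0 to 1.10 in the other 9 cows. P4 in those 3 cows was 3.85, 3.86 and 4.73 ng/mL, the 2 highest of the CON group and the highest of the ECP group, while ECP cows D160 and E1010, at 4.07 and 4.09 ng/mL, had counts of 0.812 and 0. The fitted slope was 9.14 log2 units per ng/mL (SE 1.39), and all 3 high cows were of the lower mapping class. Leaving out CON cow B1042 brought its adjusted p to 0.021.

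ENSBTAG00000005284 had a slope of 3.13 (SE 0.81, edgeR adjusted p = 0.973). Its count was 1011 in cow B0646, which had the highest P4, and 13.2 in cows X228 and C317, but also 709 in cow 1814 at 3.57 ng/mL. The genes with a negative slope of lowest p, ENSBTAG00000021941 and ENSBTAG00000031825, were both highest in cow C317, at 82.5 and 41.3, where P4 was 3.16 ng/mL. Their slopes were -3.27 (SE 0.90) and -2.62 (SE 0.73), with an edgeR adjusted p of 0.973 for each. For KRT9 and P4 the Pearson r over 12 cows was 0.12 (permutation p = 0.70) and Spearman's rho 0.08 (permutation p = 0.799). Without cows X228 and B0646, the extremes of P4, r was -0.20, and it was 0.69 within the higher and -0.49 within the lower mapping class. For ENSBTAG00000009862 r was -0.01 (permutation p = 0.98) and rho 0.03 (permutation p = 0.921), with r of -0.15 without the same cows and of 0.35 and -0.46 within the classes. The adjusted p of all 4 correlations was 0.98.

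Whether the difference between ECP and CON cows itself changed with later pregnancy was tested as an interaction. By edgeR 0 variable genes and 0% of all genes tested were called, with a lowest adjusted p of 0.301. At an unadjusted p under 0.05 there were 36 variable genes (16.2%) beside 5.28% of all genes by edgeR and 43 (19.4%) beside 6.27% by DESeq2. By limma voom there were 7 (3.15%) beside 4.68%, so that the share lay below the background. DESeq2 called 15 genes (0.0989%), among them 2 of the 222 variable genes (0.901%), with 14 variable genes given no adjusted p. By limma voom none was called. Each cell of this comparison holds 3 cows. ENSBTAG00000031265, of block 2, had the lowest p among variable genes (log2 6.61, SE 1.248, edgeR adjusted p = 0.820). It was at 48.4, 80.6 and 64.8 in the non-pregnant CON cows and at 0.974 to 3.71 in the pregnant CON cows. In the ECP group it was at 2.11 to 13.7 in non-pregnant cows and at 4.87, 26.4 and 67.5 in pregnant cows. All 13 genes of block 2, which are not independent of each other, had an interaction of this sign, 7 of them with an unadjusted p under 0.05. ENSBTAG00000019600 of block 10 had the next lowest p of this sign (5.61, SE 1.45, edgeR adjusted p = 0.898). With the opposite sign were ENSBTAG00000001801 (-9.57, SE 2.37) and ENSBTAG00000010151 (-11.16, SE 2.96), both with an edgeR adjusted p of 0.898. ENSBTAG00000001801 is switch-like, at 838, 480 and 570 in cows E0819, E0406 and C317 and at 1.03 to 65.3 in the other 9.

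The technical class of the libraries was tested in the same way, with treatment in the model. By edgeR 0 variable genes and 0% of all genes tested were called, with a lowest adjusted p of 0.103. At an unadjusted p under 0.05 there were 23 variable genes (10.4%, 5 higher and 18 lower in the higher class) beside 7.5% of all genes by edgeR. There were 32 (14.4%) beside 8.55% by DESeq2, and 16 (7.21%) beside 7.36% by limma voom, where the share was near the background. DESeq2 called 116 genes (0.765%), among them 7 of the 222 variable genes (3.15%), with 23 variable genes given no adjusted p. By limma voom none was called. The classes did not overlap in 93 genes (0.613%), and 2 of these were variable, ENSBTAG00000046952 and ENSBTAG00000047383, both higher in the lower class. ENSBTAG00000046952 was at 4.64 to 37.9 in the lower class and at 0 to 3.90 in the higher class (log2 -3.37, SE 0.72, edgeR adjusted p = 0.418). ENSBTAG00000035926 had the lowest p of the variable genes in this comparison (log2 -3.06, SE 0.55, edgeR adjusted p = 0.418), at 57.0 to 734 in the lower class and 30.9 to 58.5 in the higher class. Higher in the higher class were ENSBTAG00000018955 (log2 4.33, SE 0.99, edgeR adjusted p = 0.418), with 4 cows at 48.4 to 137 and the others at 2.78 and 7.80 against 0 to 11.4, and ENSBTAG00000007904 (log2 1.82, SE 0.57, edgeR adjusted p = 0.544). Block 9 was lower in the higher class in all 5 of its genes, which are not independent of each other, 3 of them at an unadjusted p under 0.05. The variance of the variable genes on the log2 scale associated with each factor was small in the median, 4.37% for treatment, 4.15% for pregnancy, 4.20% for P4 and 3.26% for library class. Over all genes tested the medians were 6.68%, 3.91%, 4.29% and 5.42%.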

How the data were processed

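RNA was extracted from endometrial biopsies of 12 cows (6 CON, 6 ECP) and sequenced as 1 library per cow. Per the labels and the study's methods, reads were aligned to the bovine UMD genome and the authors deposited raw counts of uniquely mapped reads per Ensembl gene. Tools in the submitters' processing notes are Bowtie2 2.1.0, HTSeq 0.5.4p2, CASAVA 1.8.2, DESeq 1.12.1 and SAMtools 0.1.18. No source used here gives the strand setting of the counting, so overlapping and antisense genes, and near-identical copies, are uncertain. Pregnancy status and P4 were taken from the labels, and the mapping class of each library from the study's read table.

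Counts were divided by median-of-ratios size factors to choose the genes. Tests used edgeR 4.0.16 (TMM, glmQLFit and glmQLFTest) in R 4.3.3 on the 15161 genes with a mean normalized count above 5. The study's methods also state a condition that the mean exceed the SD. It was not applied here, since no gene described meets it as worded. The study reports 15161 genes after both of its conditions, the same number as the mean condition alone gave here. Of the IDs with a mean above 5, 347 have an SD at or above the mean. With 2 of the genes described also in the study's table, the SD condition does not appear to have been applied as worded. SE is the log2 difference divided by the square root of F. DESeq2 1.42.0 and limma 3.58.1 were alternatives, and scripts were tested on simulated data. Exact permutation tests (scipy 1.17.1) used log2(normalized count + 1).

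The genes and lists were chosen with earlier results of these data known. Genes named are those in the study's table, the 5 of highest mean and of highest SD over mean, the 3 of highest mean in each block, 2 of lowest p per comparison and direction, the 6 switch-like genes of highest mean, and those beside each limit. A few named for contrast were chosen after their values were seen. Lists of cell type markers had names for 3 of 217 symbols (1.38%), which made that check void. No sequences were printed, because the IDs could not be paired with the reference table.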

Additional observations from a re-analysis of the deposited data

Results flagged for a closer look

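For the 19 genes named for a comparison, each group of 6 cows was examined for a cow far from the rest of its group, by the gap to the next cow over the range of the group. In 12 of 38 groups (31.6%) the highest cow stood apart by this measure, 3 in CON and 9 in ECP. The limit used flags about 1 in 20 groups of normally spread values. That rate does not carry over to these untransformed counts, and the genes were chosen for a large spread between cows. The share flagged is therefore a description only.

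In CON, cow E0040 stood apart for ENSBTAG00000002998 (925.6, next 167), cow X228 for ENSBTAG00000019600 (128.4, next 43.6) and cow E0819 for ENSBTAG00000007948 (120.8, next 29.7). In ECP, cow X156 stood apart for ENSBTAG00000023411 (160.1, next 32.0), ENSBTAG00000031265 (67.55, next 26.4) and ENSBTAG00000007904 (69.41, next 20). Cow B0646 did for ENSBTAG00000010151 (54.8, next 0.812) and ENSBTAG00000005284 (1011, next 277). Cow C317 did for ENSBTAG00000021941 (82.52, next 27.8), ENSBTAG00000031825 (41.26, next 12.2) and ENSBTAG00000001801 (569.7, next 65.3), and cow D160 for ENSBTAG00000018955 (137.2, next 48.4).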

How the results depend on the processing

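The number of variable genes moved with the limits. It was 347 with a mean above 5, 131 with a mean above 20, 437 with an SD of at least 0.8 of the mean, 91 with the stricter of the ratios tried, and 222, all shared, with TMM library sizes. Leaving out each cow in turn gave 200 to 236 genes, 184 to 212 of them shared. Blocks numbered 4 with the tree divided at 0.3 (33 genes), 16 at 0.5 (136 genes) and 7 with Pearson correlation (70 genes). At 0.3 blocks 1 and 9 stayed whole, block 2 kept 6 genes together and the other blocks kept 0. At 0.5 all 10 blocks stayed whole. With Pearson correlation blocks 1, 2, 3, 4 and 5 kept 16, 8, 9, 3 and 2 genes together. There blocks 6 and 9 kept 4 each, block 10 kept 1, and blocks 7 and 8 kept 0. DESeq2 called 99 genes for treatment (4 variable), 13 for P4 (1 variable), 15 for the interaction (2 variable) and 116 for library class (7 variable), where edgeR called 0. Within the higher mapping class alone the treatment test called 47 genes, none of them variable, and within the lower class 0. For library class, 1 gene was called without the filter on low counts and 1 without the treatment term. Leaving out each cow in turn, calls over all genes ranged from 0 to 0 for treatment and for pregnancy. They ranged from 0 to 1 for P4 (1 without CON cow B1042 and 1 without ECP cow X156), from 0 to 1 for the interaction (1 without E0040 and 1 without E0819), and from 0 to 4 for library class (4 without E0040, 1 without B1042). Calls of variable genes ranged from 0 to 1 for P4 (ENSBTAG00000010151, without B1042), from 0 to 1 for library class (ENSBTAG00000035926, without E0040), and were 0 otherwise. Of 409 alternatives for 20 values of single genes, 397 kept their direction and side of the threshold, 12 passed it and none changed direction. These 20 values were those of lowest p per comparison and direction, and most alternatives refit largely the same cows. A kept direction is therefore no independent evidence. The cause of the differences between settings was not tested. No paired analysis was possible because the labels give no numbers shared between groups. With 6 cows a group and genes chosen for an SD at least as large as the mean, single cows set many of these values. A p above the threshold does not show equal levels.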
